A study of Mus musculus with 10 samples.

Results

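The genes described here are the 9 laminin chains *Lama1*, *Lama2*, *Lama3*, *Lama4*, *Lama5*, *Lamb1*, *Lamb2*, *Lamb3* and *Lamc1*, chosen by gene symbol from the 29268 genes of the table, and all 9 were found. They were measured by RNA sequencing of the uterus of 5 HSD17B1TG and 5 WT female mice on the FVB/N background aged 4 months. The paper does not say which part of the uterus gave the RNA. Each mouse gave 1 library. HSD17B1TG mice express the cDNA of human HSD17B1, the enzyme that converts estrone to estradiol, in all tissues from the chicken beta-actin promoter with a CMV enhancer. Transgenic mice of the line are heterozygous, with transgenic fathers and WT mothers. Estrous cycles are absent in HSD17B1TG females, and the cycle phase of the WT females was not fixed, so genotype and cycle state cannot be told apart. No litter, batch or date is named in the labels. Because the transgene is human, reads on mouse *Hsd17b1* do not check the genotype. In bulk RNA of a tissue, fewer cells of a type and less RNA per cell cannot be told apart.

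Laminins are cross-shaped proteins of the basement membrane, the sheet of matrix under epithelia and around muscle fibres and blood vessels. Each is assembled inside the cell from an α, a β and a γ chain, and the α chain carries the domains by which integrins and dystroglycan on the cell surface bind the sheet. The chain made by a cell sets the laminin it can secrete: α5 is the main α chain under mature epithelia, α3 and β3 belong to the laminin that anchors epithelia at hemidesmosomes, α2 is the chain of muscle and mesenchymal basement membranes, α4 is typical of endothelium and smooth muscle, and α1 is prominent in the embryo. In the uterus, such sheets lie under the luminal and glandular epithelium and around decidual stromal cells, smooth muscle cells and vessels.

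Stretches of 120 bases before a start site are shown for the chains with the largest differences in RNA for which an entry was found, because the start region is where their transcription begins. The starts used for *Lama2* and *Lamb3* lie inside the longer gene models of the table, and the *Lamb1* stretch ends 59 bases before its start. RefSeq promoter windows, from 250 bases before to 50 bases after the start, on GRCm38.p6, were matched by symbol for 5 of the 9 chains, *Lama2*, *Lama5*, *Lamb1*, *Lamb2* and *Lamb3*, the last with 2 windows (6 windows in all). *Lama1*, *Lama3*, *Lama4* and *Lamc1* had no entry. Capitals mark matches to GGGCGG, the GC box bound by SP1-family factors, on either strand.
Lama5, chr2:180225860-180225979, minus strand: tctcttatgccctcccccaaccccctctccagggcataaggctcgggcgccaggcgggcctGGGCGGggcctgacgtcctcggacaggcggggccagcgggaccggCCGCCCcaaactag
Lamb3, chr1:193301873-193301992, plus strand: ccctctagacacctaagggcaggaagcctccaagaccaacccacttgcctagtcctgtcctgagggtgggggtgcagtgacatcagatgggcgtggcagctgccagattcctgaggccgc
Lama2, chr10:27616943-27617062, minus strand: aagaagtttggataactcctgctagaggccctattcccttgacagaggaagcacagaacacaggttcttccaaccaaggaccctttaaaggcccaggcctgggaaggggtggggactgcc
Lamb1, chr12:31265114-31265233, plus strand: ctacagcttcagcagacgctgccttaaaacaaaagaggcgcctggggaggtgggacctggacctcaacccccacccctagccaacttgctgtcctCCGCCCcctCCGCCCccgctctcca

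Over the full window of 300 bases, the GC box was matched 4 times in *Lama5*, 2 times in *Lamb1* and 1 time in *Lama2*, and not in *Lamb2* or *Lamb3*. Of 32544 mouse promoters, 35.9% hold at least 1 match. The *Lama5* window was also rich in G and C, with a content of 72.7%, against 63.7% in *Lamb1*, 59.3% in *Lamb3*, 50.3% in *Lama2* and 44% in *Lamb2*. No window of these chains held the letters of the estrogen receptor half-site GGTCA (40.5% of all promoters do), of the AP-1 site TGANTCA (7.79%) or of the TATA box TATAAA (13.6%), nor those of the full palindromic estrogen response element (0.0707%). All motifs were searched on both strands, and the half-site is part of the full element. A match is a description of the letters and not of binding.

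The libraries held 16544864 to 19451715 counts on genes in HSD17B1TG (mice TG1 to TG5) and 14817228 to 23271988 in WT (mice WT1 to WT5). Mitochondrial genes took 5.74%, 6.87% and 7.57% of the counts in TG1, TG4 and TG5, 1.94% and 2.49% in TG2 and TG3, and 2.58% to 3.37% in WT. The 4 adipocyte markers summed to 49.7 CPM in TG4 and to at most 12.2 CPM in the other mice. Every uterine marker in a list of 6 was expressed. Of 11 epithelial markers, 11 had a log2 fold change above 0 (median 1.24), of which edgeR called 0 and DESeq2 3, and 8 were higher at an unadjusted p under 0.05 in edgeR, as 14.7% of all genes were. Their summed level lay between 1674 and 7515 CPM in HSD17B1TG and between 1109 and 4149 in WT. CPM are counts scaled to the library total after that total was adjusted by edgeR's normalization factor (TMM) for the mouse. Of 12 stromal markers, 6 were called lower with edgeR, against 2.08% of all genes, and 7 with DESeq2. At an unadjusted p under 0.05 in edgeR 8 were lower, as 11.4% of all genes were. The median log2 fold change was -1.32, with 11 below 0, but *Lum* was at 0.51 and *Dcn* at -0.10. Summed levels were 3232 to 11636 CPM in HSD17B1TG, all below the 11986 to 15710 in WT. In WT, *Col1a1* (71004 to 110598 counts) and *Col3a1* (94176 to 105347) weighed most in this sum. Both were lower in all HSD17B1TG mice than in all WT mice, and the sum without them was not taken. The 10 smooth muscle markers (median 0.58, 0 called with edgeR or DESeq2 and 0 at an unadjusted p under 0.05) varied widely within both groups, between 2756 CPM in TG5 and 22548 in TG1, and between 1425 in WT3 and 16378 in WT4. The part of these differences in the results below was not tested unless a value is given.

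Levels of chains are given as FPKM, fragments per kilobase of gene length scaled for depth, which can be compared between genes. A chain was called when edgeR's quasi-likelihood test on the counts gave an adjusted p-value (Benjamini-Hochberg) under 0.05 over all genes tested, provided that the level changed more than 2-fold and that the mean of at least 1 group exceeded 1 FPKM. The SE beside a log2 fold change is not an output of edgeR. It was derived as the size of the log2 fold change over the square root of the test's F statistic. All 9 chains passed the filter on low counts and were tested. *Lama5* and *Lama3* rose and *Lama2* and *Lamb1* fell, so that 2 of 9 chains were called higher, where 2.16% of 16993 genes were, and 2 of 9 lower, where 2.08% of all genes were. With DESeq2 on the same counts, 3 chains were called higher (4.17% of its genes) and 2 lower (3.07%), *Lamb3* being added. The median log2 fold change of the 9 chains was 0.13, against 0.00 for all genes tested, with 5 chains above 0 and 4 below. In 1 chain, *Lama5*, all HSD17B1TG mice lay above all WT mice, as in 4.04% of all genes, and in 1, *Lama2*, all lay below, as in 2.65%.

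**Figure D1:**
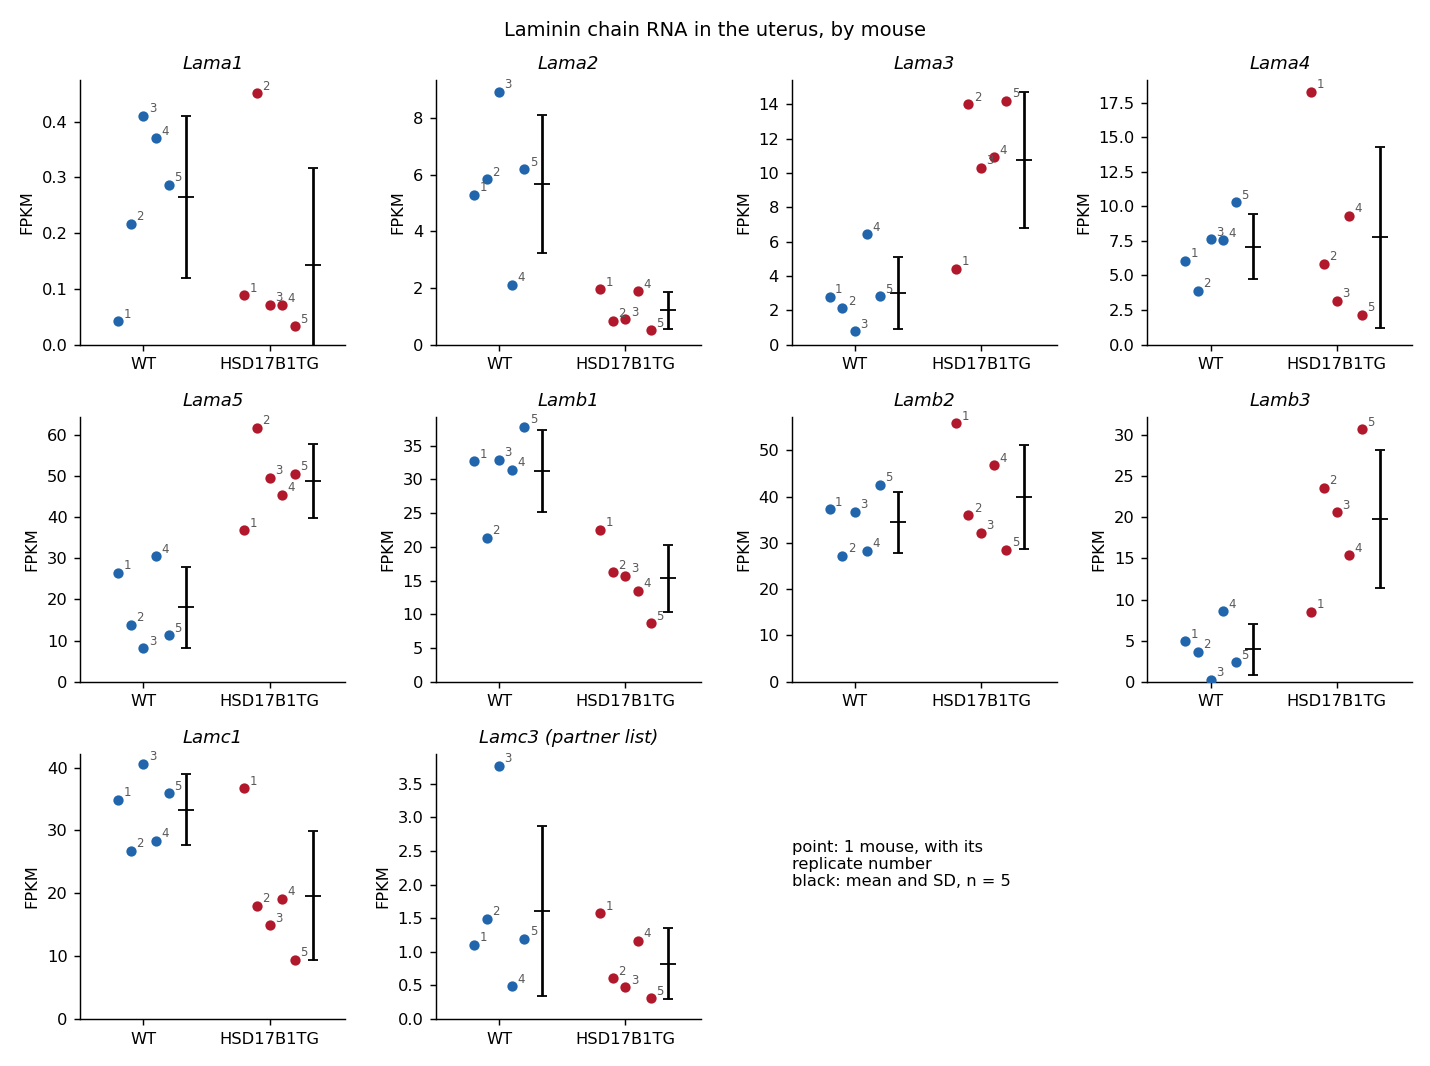
FPKM (vertical axes, linear, each with its own scale) of the 9 laminin chains and of *Lamc3* in each mouse, WT in blue and HSD17B1TG in red, with the replicate number beside each point and the mean and SD (n = 5) in black. The 5 HSD17B1TG mice lie between 36.8 and 61.7 FPKM for *Lama5*, above the WT mice at 8.16 to 30.5, and between 0.511 and 1.95 for *Lama2*, below the WT mice at 2.11 to 8.94.

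*Lama5* (ENSMUSG00000015647, chromosome 2 from 180176373 to 180225859, minus strand, 79 exons in its longest transcript) encodes the α5 chain, the most broadly used α chain of adult epithelia. It had 36.8, 61.7, 49.5, 45.4 and 50.6 FPKM in TG1 to TG5, and 26.5, 13.9, 8.16, 30.5 and 11.3 in WT1 to WT5. The groups did not overlap, with TG1 the lowest of the HSD17B1TG mice and WT4 the highest of the WT mice. HSD17B1TG mice averaged 48.8 ± 9.01 FPKM (SD, n = 5) and WT mice 18.1 ± 9.83, which edgeR estimated as a log2 fold change of 1.43 (SE 0.34, adjusted p = 0.0402). The two-sided exact permutation test over all assignments of the 10 mice to the genotypes gave p = 0.00794, which is the smallest it can give.

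*Lama3* (ENSMUSG00000024421, chromosome 18 from 12333819 to 12583013, plus strand, 75 exons) encodes the α chain of the hemidesmosomal laminin. Its FPKM were 4.4, 14, 10.3, 10.9 and 14.2 in TG1 to TG5, against 2.8, 2.12, 0.785, 6.43 and 2.81 in WT1 to WT5. In 4 of 5 HSD17B1TG mice the level was above that of every WT mouse, and TG1 lay below WT4. The mean rose from 2.99 ± 2.09 FPKM (SD, n = 5) to 10.7 ± 3.96, a log2 fold change of 1.85 (SE 0.49), and the adjusted p of 0.0499 in edgeR was at the threshold. With DESeq2-style size factors (RLE) in place of TMM, the log2 fold change was again 1.85 and the gene was no longer called (adjusted p = 0.0509). An antisense gene, *Gm29200*, shares 197 of the 10745 exon bases of *Lama3*, and the strand setting of the counting is not given in the sources used here.

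*Lama2* (ENSMUSG00000019899, chromosome 10 from 26980036 to 27619758, minus strand, 65 exons) encodes the α chain of muscle and mesenchymal basement membranes, whose loss causes a congenital muscular dystrophy. It was measured at 1.95, 0.851, 0.891, 1.89 and 0.511 FPKM in TG1 to TG5, and at 5.29, 5.84, 8.94, 2.11 and 6.19 in WT1 to WT5. All HSD17B1TG mice were below all WT mice, but WT4 was only slightly above TG1 and TG4. HSD17B1TG mice averaged 1.22 ± 0.659 FPKM (SD, n = 5) and WT mice 5.67 ± 2.44, 4.67-fold lower by edgeR's estimate (log2 fold change -2.22, SE 0.44, adjusted p = 0.0258). This was the lowest adjusted p of the 9 chains with edgeR, and 631 of the 16338 exon bases are shared with the antisense gene *Gm48084*.

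*Lama4* (ENSMUSG00000019846, chromosome 10 from 38965515 to 39110188, plus strand, 38 exons), the α chain of endothelial and smooth muscle basement membranes, varied more within the HSD17B1TG group than between the groups. It had 18.3, 5.84, 3.17, 9.3 and 2.15 FPKM in TG1 to TG5, and 6.08, 3.89, 7.61, 7.54 and 10.3 in WT1 to WT5. TG1 was the highest of the 10 mice and TG5 the lowest. These mice also had the highest and the lowest summed smooth muscle, endothelial and stromal markers of their group. Among the WT mice *Lama4* was highest in WT5, which also had the highest stromal sum (15710 CPM). The smooth muscle sum was highest in WT4 (16378 CPM) and the endothelial sum in WT3 (836 CPM). The means were 7.75 ± 6.52 and 7.08 ± 2.34 FPKM (SD, n = 5), with a log2 fold change of 0.13 (SE 0.51, adjusted p = 0.902 in edgeR). Without TG1 the estimate was -0.47.

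*Lama1* (ENSMUSG00000032796, chromosome 17 from 67697259 to 67822647, plus strand, 63 exons), known best from embryonic basement membranes, had the lowest level of the 9 chains in both groups. Its FPKM were 0.0887, 0.451, 0.0714, 0.0705 and 0.0332 in TG1 to TG5, and 0.042, 0.217, 0.41, 0.37 and 0.287 in WT1 to WT5. TG2 stood apart from the other HSD17B1TG mice and lay above all WT mice. Counts were between 5 and 76 in HSD17B1TG and at most 74 in WT, and the difference did not pass the test (log2 fold change -0.89, SE 0.75, adjusted p = 0.49 in edgeR). Without TG2 it was -2.0 and again not called (adjusted p = 0.114 in edgeR).

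*Lamb1* (ENSMUSG00000002900, chromosome 12 from 31265234 to 31329644, plus strand, 33 exons) encodes the β1 chain, which pairs with most α chains in many tissues. The FPKM were 22.5, 16.2, 15.7, 13.5 and 8.64 in TG1 to TG5, and 32.7, 21.3, 32.9, 31.4 and 37.8 in WT1 to WT5. In 4 of 5 HSD17B1TG mice the level was below that of every WT mouse, and TG1 was slightly above WT2. HSD17B1TG mice averaged 15.3 ± 5.03 FPKM (SD, n = 5) and WT mice 31.2 ± 6.05. The log2 fold change was -1.03 (SE 0.24, adjusted p = 0.0379 in edgeR). The fall of 2.05-fold is close to the minimum of 2 in the call rule.

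*Lamb2* (ENSMUSG00000052911, chromosome 9 from 108479736 to 108490530, plus strand, 33 exons) encodes the β2 chain, found in muscle, glomerular and synaptic basement membranes. It had 55.8, 36, 32.2, 46.8 and 28.5 FPKM in TG1 to TG5, and 37.3, 27.2, 36.7, 28.3 and 42.6 in WT1 to WT5. The groups overlapped over most of their range, with means of 39.9 ± 11.3 and 34.4 ± 6.5 FPKM (SD, n = 5). The log2 fold change of 0.21 (SE 0.21, adjusted p = 0.575 in edgeR) was the size of its own error.

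*Lamb3* (ENSMUSG00000026639, chromosome 1 from 193207699 to 193343878, plus strand, 27 exons) encodes the β chain that pairs with α3 at hemidesmosomes. It had 8.54, 23.6, 20.6, 15.4 and 30.7 FPKM in TG1 to TG5, and 4.91, 3.64, 0.263, 8.58 and 2.39 in WT1 to WT5. The groups met at a single point, where TG1 was just below WT4, and the other 4 HSD17B1TG mice were above every WT mouse. The mean was 19.8 ± 8.37 FPKM (SD, n = 5) against 3.95 ± 3.1, and the fold change, 5.00, was the highest of the 9 chains (log2 fold change 2.32, SE 0.67). It missed the call with edgeR (adjusted p = 0.0618) and passed it with DESeq2 (adjusted p = 0.00469). The two-sided exact permutation test gave p = 0.0159 without adjustment. The gene model spans *Hsd11b1* and *G0s2*, which lie on the other strand and share 0 exon bases with it.

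*Lamc1* (ENSMUSG00000026478, chromosome 1 from 153218922 to 153332786, minus strand, 28 exons) encodes the γ1 chain, a part of most laminins. It had 36.7, 18, 14.9, 19.1 and 9.45 FPKM in TG1 to TG5, and 34.9, 26.8, 40.6, 28.3 and 35.9 in WT1 to WT5. TG1 lay within the WT range and the other 4 HSD17B1TG mice lay below it. The mean was 19.6 ± 10.3 FPKM (SD, n = 5) against 33.3 ± 5.71, and the log2 fold change of -0.77 (SE 0.31) did not pass the test (adjusted p = 0.146 in edgeR). Without TG1 it was -1.12 and called (adjusted p = 0.0198 in edgeR).

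**Figure D2:**
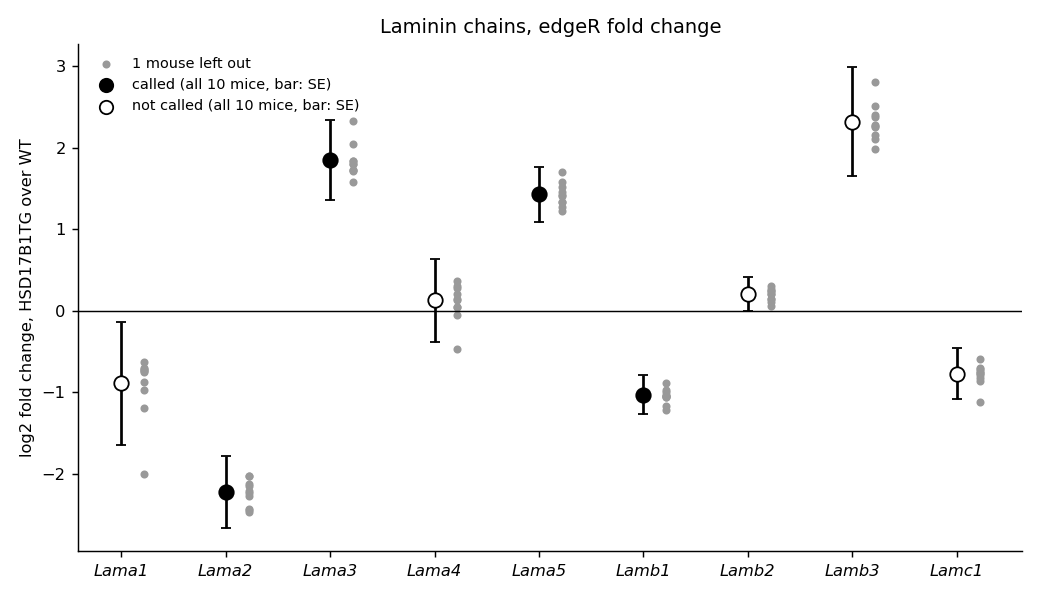
Log2 fold change of HSD17B1TG over WT (vertical axis) of the 9 laminin chains with all 10 mice, as black circles with bars of 1 SE (filled where called), and with each of the 10 mice left out in turn, as grey points. *Lama2* stays between -2.46 and -2.02 and *Lama5* between 1.22 and 1.70, while *Lama4* lies on both sides of 0.

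The sizes of the 4 called differences held when single mice were left out, and their calls did not. Without 1 mouse in turn, the log2 fold change lay between 1.22 and 1.70 for *Lama5*, between 1.58 and 2.33 for *Lama3*, between -2.46 and -2.02 for *Lama2* and between -1.21 and -0.88 for *Lamb1*. None of the 4 was called without TG2, without TG5, without WT2, without WT3 or without WT5, and calls were also lost without TG3 (*Lama3* and *Lama5*), TG4 and WT1 (*Lama3*, *Lama5* and *Lamb1*). Without WT4, the WT mouse with the most epithelial and smooth muscle marker RNA, 3 chains were called higher and 2 lower, and without TG1, 3 and 3. The share of all genes called in fits with 1 mouse left out was not counted. Of the partner genes described below, 0 were called higher and 8 lower without WT4, 1 and 11 without TG1, and 0 and 7 with all mice.

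The α chains differed in their total as well as in their makeup. The summed FPKM of the 5 α chains lay between 61.6 and 82.8 in HSD17B1TG (68.7 ± 8.3, SD, n = 5) and between 25.9 and 47 in WT (34.1 ± 9.39), without overlap. *Lama5* made the greatest part in every mouse except WT3, where *Lama2* did. The summed β chains (74.9 ± 7.68 against 69.6 ± 11.2 FPKM) overlapped between the groups. Sums and shares were not tested.

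Within the β chains, the share of *Lamb1* was smaller and that of *Lamb3* on average larger in HSD17B1TG. *Lamb1* took 20.2% ± 5.08 (SD, n = 5) of the β chain FPKM in HSD17B1TG (12.7% to 25.9%) and 44.6% ± 2.48 in WT (40.8% to 47.1%), without overlap. *Lamb3* took 27.3% ± 13.2 and 5.87% ± 4.62, with overlap, and *Lamb2* 52.5% ± 9.89 and 49.5% ± 4.61. Within the α chains, *Lama2* took 0.758% to 3.17% in HSD17B1TG and 4.5% to 34.5% in WT, without overlap, while *Lama5* took 70.8% ± 7.24 and 50.3% ± 15.7.

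**Figure D3:**
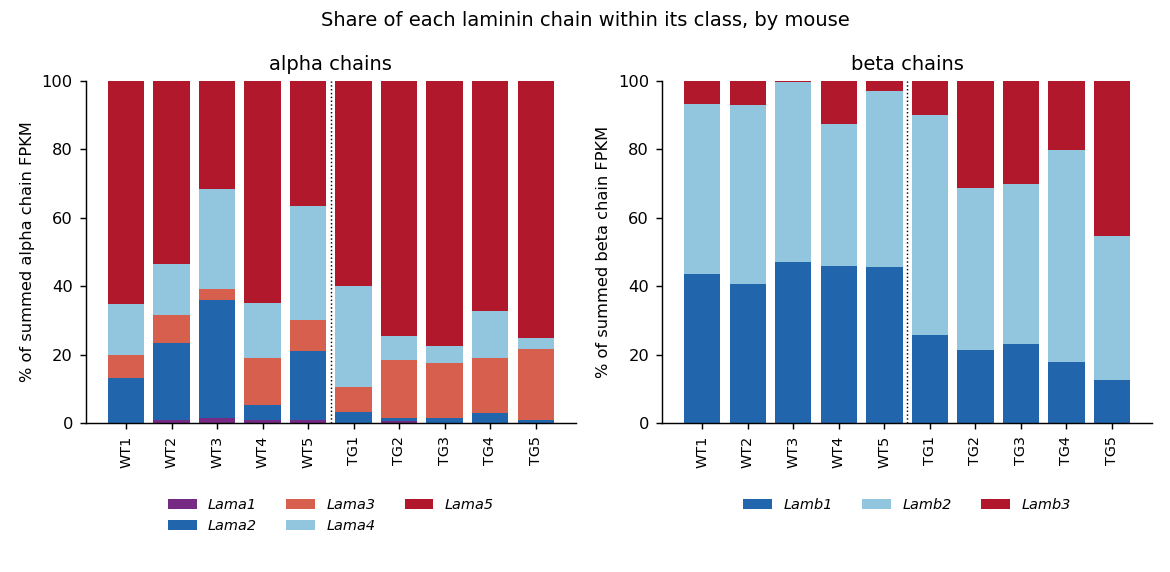
Share of each α and β chain, as % of the summed FPKM of its class (vertical axes), in each mouse, with the 5 WT mice left and the 5 HSD17B1TG mice right of the dotted line. The share of *Lamb1* is 40.8% to 47.1% in WT and 12.7% to 25.9% in HSD17B1TG, and the share of *Lama2* is 4.5% to 34.5% in WT and 0.758% to 3.17% in HSD17B1TG.

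The order of the levels differed between the groups. In WT the order by mean FPKM was *Lamb2*, *Lamc1*, *Lamb1*, *Lama5*, *Lama4*, *Lama2*, *Lamb3*, *Lama3* and *Lama1*, and in HSD17B1TG it was *Lama5*, *Lamb2*, *Lamb3*, *Lamc1*, *Lamb1*, *Lama3*, *Lama4*, *Lama2* and *Lama1*. Most neighbours in these orders overlapped between mice. The exceptions were *Lama3* over *Lama1* in WT, and *Lama4* over *Lama2* and *Lama2* over *Lama1* in HSD17B1TG.

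Mice of a group differed from each other along the same chains. TG1 had the lowest *Lama3*, *Lama5* and *Lamb3* of the HSD17B1TG mice and the highest *Lama2*, *Lama4*, *Lamb1*, *Lamb2* and *Lamc1*, and also the lowest epithelial and the highest stromal and smooth muscle marker sums of its group. TG5 had the highest *Lama3* and *Lamb3*, the lowest *Lama2*, *Lama4*, *Lamb1*, *Lamb2* and *Lamc1*, and the highest epithelial and lowest stromal marker sums. Among the WT mice, WT3 had the highest *Lama2* and the lowest *Lama3*, *Lama5* and *Lamb3*, and WT4 the reverse. Over the 10 mice, the pair with the most alike profile, with *Lamc3* included, was *Lamb1* and *Lamc1*, with a root mean square difference of 0.26 on the log2 CPM scale after centring each gene. *Lama3* and *Lama5* followed with 0.53, then *Lama4* and *Lamc1* with 0.57, and the least alike were *Lama2* and *Lamb3* with 3.16. These distances share the libraries and the genotype, and are given as a description.

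Outside the laminins, the genes most like each called chain by the same measure over the 10 mice were *Sema3f* (0.13), *Osbpl10* (0.21) and *Tnfrsf1b* (0.24) for *Lama5*, and *Fam20c* (0.24), *Osgin1* (0.24) and *Acp5* (0.25) for *Lama3*. For *Lama2* they were *Islr* (0.39), *Prickle1* (0.39) and *Nid1* (0.40), of which *Nid1* encodes nidogen-1, a linker that binds laminin. For *Lamb1* they were *Tubb6* (0.22), *Vwa1* (0.23) and *Sparc* (0.23). *Sparc* encodes a matrix protein that binds type IV collagen.

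Each of the 9 chains was also set in ratio to the marker sums of the epithelium, stroma, smooth muscle and endothelium. These ratios were chosen after the values were seen and were not tested, and of 36 ratios, 6 did not overlap between the groups. Per 1000 CPM of epithelial markers, *Lamb3* had 22.7 to 33.8 CPM in HSD17B1TG and 1.45 to 14.4 in WT, without overlap, as in 0.989% of all genes tested. *Lama3* had 18.4 to 28.3 CPM against 7.06 to 27.6, with medians of 26.5 and 13 CPM, and the overlap came from WT5, since the other 4 WT mice were at 16.7 or below. *Lama5* had 77.5 to 251 against 77.8 to 122.

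The medians per epithelial marker level were 117 CPM in HSD17B1TG and 90.2 in WT for *Lama5*, which is a smaller gap than in its level, and the 251 CPM was that of TG1. Per 1000 CPM of stromal markers, *Lamb1* had 19.3 to 28.2 CPM in HSD17B1TG and 16.5 to 27 in WT, and *Lamc1* 22.3 to 26.2 and 17.3 to 24.1, with medians of 25.6 against 23.9 CPM and of 23.8 against 19.2 CPM. Against the smooth muscle and epithelial markers, the medians of both chains were lower in HSD17B1TG, with 21.2 against 65.3 and 29.2 against 131 CPM for *Lamb1*, and 19.7 against 58.1 and 27.2 against 126 CPM for *Lamc1*, all with overlap. *Lama2* had 2.22 to 4.64 CPM per 1000 CPM of stromal markers in HSD17B1TG and 2.65 to 9.78 in WT. The overlap came from WT4, since the other 4 WT mice were at 6.52 or above. *Lama4*, set against the smooth muscle markers, had 7.29 to 11.3 and 5.56 to 65.7 CPM, a narrower range in HSD17B1TG and a wider range in WT than its level had. The other 5 ratios without overlap were higher in HSD17B1TG for *Lama5* (36.2 to 180 against 6.23 to 26.6 CPM), *Lamb3* (4.87 to 63.5 against 0.116 to 4.34) and *Lamb2* (29.3 to 54.2 against 13 to 18.9) per 1000 CPM of stromal markers, as in 27.5% of all genes, and for *Lamb2* per 1000 CPM of endothelial markers (542 to 1043 against 272 to 469), as in 2.93%. Against epithelial and smooth muscle markers, the medians of *Lamb2* were lower in HSD17B1TG, with 39.9 against 94.3 and 28.9 against 45.7 CPM, both with overlap. The last ratio without overlap, *Lama2* per endothelial markers, was lower (41.4 to 75 against 94 to 260), as in 0.435%. The stromal marker sum itself did not overlap between the groups, and in WT *Col1a1* and *Col3a1* weighed most in it.

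**Figure D4:**
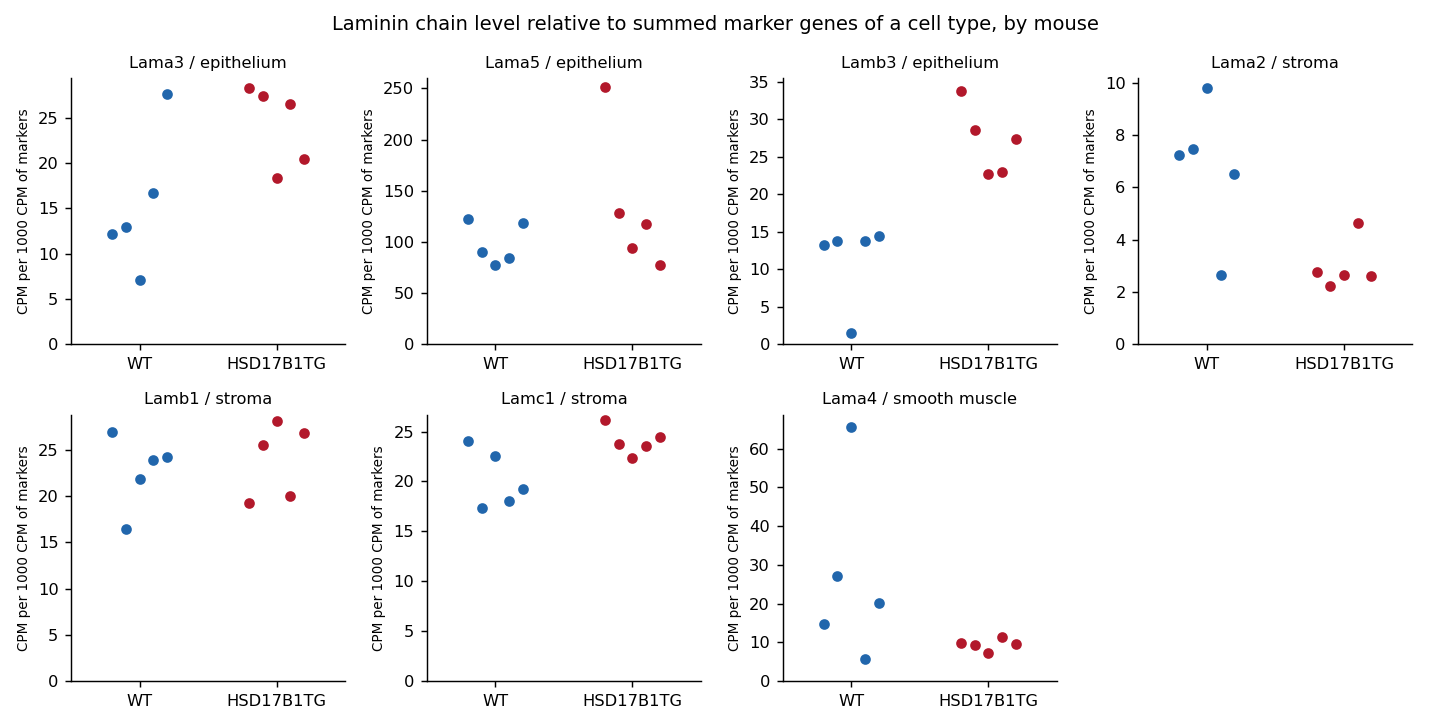
CPM of a chain per 1000 CPM of summed marker genes of a cell type (vertical axes, linear) in each mouse, WT in blue and HSD17B1TG in red, 1 point per mouse. The groups lie apart for *Lamb3* over epithelial markers (22.7 to 33.8 against 1.45 to 14.4) and overlap in the other 6 panels.

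*Lamc3* and the other partners of laminin were taken from 8 lists, on which 75 of 79 genes were tested. With edgeR 0 were called higher and 7 lower (2.16% and 2.08% of all genes were), against 2 higher and 8 lower with DESeq2 (4.17% and 3.07%). At an unadjusted p under 0.05 in edgeR 10 were higher and 14 lower, where 14.7% and 11.4% of all genes were. The median log2 fold change of the 75 was -0.10, with 42 below 0 and 33 above. *Lamc3*, which encodes a further γ chain, averaged 0.822 ± 0.526 FPKM (SD, n = 5) in transgenic mice and 1.61 ± 1.26 in WT mice (adjusted p = 0.315 in edgeR).

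The 7 called partners came from 2 of the 8 lists. Among 20 linkers and proteoglycans tested, which join the laminin and collagen networks or bind growth factors, 5 fell and the median log2 fold change was -0.80. *Nid1* had 31.3, 16.4, 13.4, 16.1 and 12.9 FPKM in TG1 to TG5 and 67.5, 121, 135, 30.5 and 104 in WT1 to WT5, with WT4 just below TG1 (log2 fold change -2.36, SE 0.41, adjusted p = 0.0199 in edgeR). *Nid2*, the second nidogen, had 1.11 to 3.88 FPKM in HSD17B1TG and 4.04 to 10 in WT, without overlap (log2 fold change -1.64). *Egflam* encodes pikachurin, a ligand of dystroglycan, and fell by 2.18 on the log2 scale. *Col18a1*, the collagen of which endostatin is a fragment, and *Smoc2*, a SPARC-related matrix protein, fell by 2.56 and 2.57 on the log2 scale, and neither overlapped between the groups.

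Of the 6 type IV collagen genes, whose chains form the second network of the basement membrane, all 6 had a log2 fold change below 0 (median -0.91) and 2 were called. *Col4a5* and *Col4a6* lie next to each other on the X chromosome and share a promoter region. *Col4a6* averaged 2.83 ± 1.16 FPKM (SD, n = 5) in transgenic mice and 13 ± 9.66 in WT mice (log2 fold change -2.21, adjusted p = 0.0445 in edgeR), and *Col4a5* 7.31 ± 1.73 and 20 ± 11.5 (-1.46, adjusted p = 0.0494). The levels of both in WT1 and WT4 lay within the HSD17B1TG range. With limma's voom neither was called (adjusted p = 0.074 for *Col4a5* and 0.0969 for *Col4a6*), and nor was *Egflam* (0.0653).

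None of the 9 receptors or 7 hemidesmosome genes was called with edgeR, while DESeq2 called 1 receptor, *Itgb4*, higher. At an unadjusted p under 0.05 in edgeR, 4 receptors and 2 hemidesmosome genes were higher and 0 lower. Of all genes, 14.7% were higher and 11.4% lower at this p. The receptor genes with the smallest p were *Itga2* and *Itgb4*, which encode the integrin α2 and β4 chains, the former with 11 ± 4.63 FPKM (SD, n = 5) against 3.91 ± 2.95 (adjusted p = 0.124 in edgeR) and the latter with a log2 fold change of 1.18 (adjusted p = 0.0907 in edgeR). *Dag1*, which encodes dystroglycan, was at -0.02, and *Itga6*, the partner of β4, at 0.82. In the hemidesmosome list 6 of 7 log2 fold changes were above 0 (median 0.99), led by p by *Cd151* (0.54, adjusted p = 0.0757 in edgeR) and *Col17a1* (1.19, 0.098), the latter at under 1 FPKM on average in both groups.

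The 9 genes tested of the dystrophin-glycoprotein complex, the 13 tested glycosylation enzymes that let dystroglycan bind laminin, and the 10 tested proteases that can cleave laminins gave no call with edgeR, with medians of 0.41, -0.18 and -0.01. Those with the smallest p were *Sgce* (0.53, adjusted p = 0.109 in edgeR) and *Dmd* (0.71, 0.157), *Pomt2* (-0.57, 0.0747) and *Ispd* (-1.11, 0.102), and *Mmp9* (1.72, 0.122) and *Plat* (-1.49, 0.161). At an unadjusted p under 0.05 in edgeR, 3 genes of the complex and 1 protease were higher, and 2 enzymes and 1 protease lower. Of all genes, 14.7% were higher and 11.4% lower at this p, so the counts of enzymes and proteases were near the general share. DESeq2 called *Mmp9* higher.

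**Figure D5:**
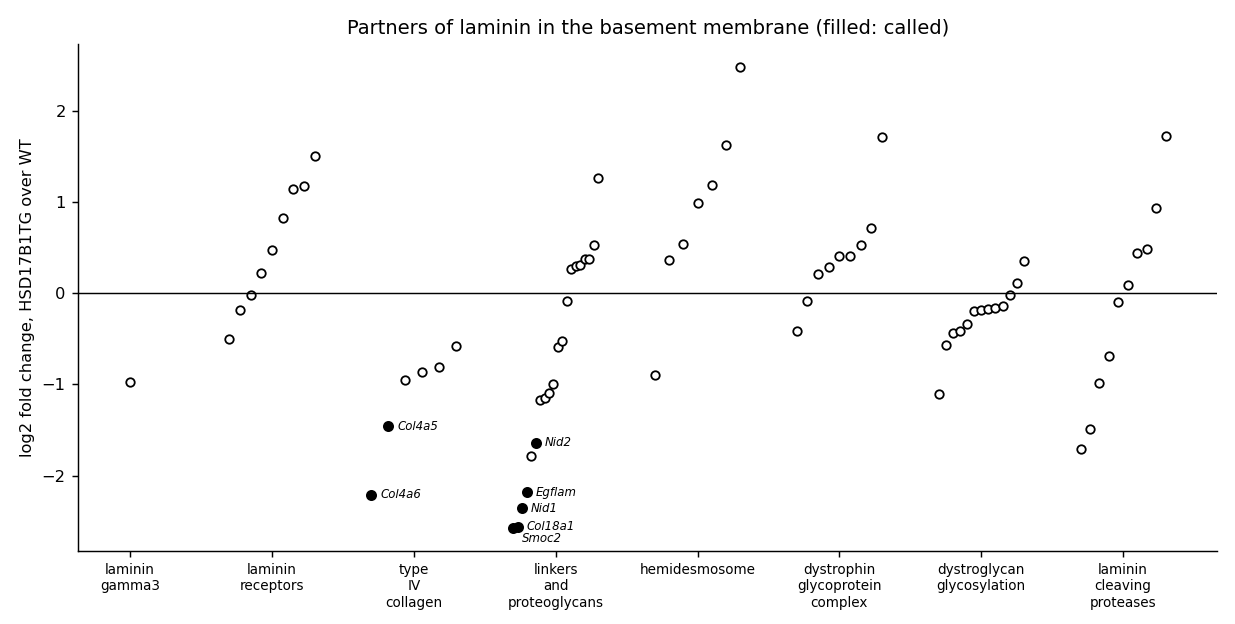
Log2 fold change of HSD17B1TG over WT (vertical axis) of 75 tested partner genes in 8 lists, 1 circle per gene, filled and named where called. The 7 called genes, 2 type IV collagens and 5 linkers and proteoglycans, all lie below 0, between -2.57 and -1.46.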

How the data were processed

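Uterine RNA of 10 mice was sequenced by the authors as paired-end reads, mapped with HISAT2 2.0.5 to GRCm38 with the Ensembl 94 annotation. Neither the counting program nor its use of strand is given in the sources used here. The authors deposited raw counts per gene, a signal (the count divided by a DESeq2 size factor per mouse) and FPKM, scaled by the same size factor, in 1 table with gene lengths. Its fold change and p-value columns hold the authors' own comparison and were not used, and neither were the enrichment tables.

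The genotype in the labels gave each sample its group, and mice were numbered in accession order. The quasi-likelihood test of edgeR 4.0.16 in R 4.3.3, with TMM factors, was run over the 16993 genes that filterByExpr kept. Log2 CPM used a prior count of 2. The statistics were tested on simulated data. Alternatives were DESeq2 1.42.0, limma 3.58.1 (voom, and log2 of FPKM plus 1 or 0.1), other normalizations, filters and call rules, a gene length offset, and each mouse left out. A count of 3 corresponds to 0.2025 CPM in the mouse with the lowest total, here scaled to the total without the TMM factor. This limit covers counting error only.

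The chains, the gene lists and the rule for naming genes were chosen with earlier results of these data known. The rule names all 9 chains, each called partner, the 2 partners of each list with the smallest p and the 3 protein-coding genes most like each called chain. *Itga6*, *Dag1* and the overlap of single genes were added after their values were seen, as were the ratios to marker sums. Older symbols stood for 2 partners (*Ispd*, *Tmem5*). *Elane* is not in the table and *Tinag* was not tested. Further marker lists covered leucocytes (of 7 tested, *Laptm5* and *Itgam* called higher with edgeR, 2 higher and 2 lower with DESeq2, 2 higher and 3 lower at an unadjusted p under 0.05 in edgeR, median log2 fold change -0.41), Schwann cells (0 of 2 with edgeR or DESeq2, 1 lower at an unadjusted p under 0.05 in edgeR), endothelium (0 of 11 with edgeR, 2 lower with DESeq2, 1 higher and 4 lower at an unadjusted p under 0.05 in edgeR), mesothelium (0 of 4 with edgeR, 1 higher with DESeq2 and 1 at an unadjusted p under 0.05) and oviduct (0 of 2 in each), and no adipocyte marker was tested. At the unadjusted p under 0.05 in edgeR, 14.7% of all genes were higher and 11.4% lower. Of the uterus list, *Hoxa10* and *Hoxa11* were called lower, and both also stand in the stromal list. Some genes of the lists, and sums and shares that need them, are not reported here.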

Additional observations from a re-analysis of the deposited data

Results flagged for a closer look

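In 18 groups of 5 mice (9 chains in each genotype), 1 held a mouse far from the others. *Lama1* was at 0.451 FPKM in TG2, where the other HSD17B1TG mice had 0.0332 to 0.0887. The gap was 0.867 of the group's range, above the critical ratio of 0.71, and chance marks about 1 in 20 groups in this way.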

How the results depend on the processing

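With 5 mice per group, edgeR's adjusted p-values of the called chains lay between 0.0258 and 0.0499, so small changes in the test moved calls. No paired analysis was possible because the genotypes share only 1 of the numbers in their titles, and the labels do not say what these numbers stand for. Chains called higher were 1 (*Lama5*) under RLE, upper quartile or library size scaling, with no filter on low counts and with CPM above 1 in 5 mice, and 0 to 3 with 1 mouse left out. *Lama3*, at 1.85, 1.76, 1.69, 1.79 and 1.82 in these settings, was then not called (adjusted p up to 0.0568 in edgeR), and was at 1.58 to 2.33 with 1 mouse left out. Chains called lower were 1 with voom and quality weights (*Lamb1* at -0.99, under the fold minimum) and 0 to 3 with 1 mouse left out. *Lama2* (-2.46 to -2.02), *Lama5* (1.22 to 1.70) and *Lamb1* (-1.21 to -0.88) kept their direction without any 1 mouse and lost the call in 5, 8 and 7 of 10 such fits. *Lamb3* was called with DESeq2 (2.32), voom with quality weights (2.98), limma on log2(FPKM + 1) (2.24) and on log2(FPKM + 0.1) (2.75), and lay between 1.99 and 2.81 with 1 mouse left out, called without TG1 (2.51) and without WT4 (2.81). *Lamc1* lay between -1.12 and -0.59, and *Lama1* between -2.0 (without TG2) and -0.63, and at -0.23 with voom and quality weights. *Lama4* changed sign with voom (-0.21), voom with quality weights (-0.16), library size scaling (-0.02) and limma on log2(FPKM + 1) (-0.14) or log2(FPKM + 0.1) (-0.20), and lay between -0.47 (without TG1) and 0.37 with 1 mouse left out, at -0.05 without WT2. Partner genes called lower were 4 with voom (without *Col4a5*, *Col4a6* and *Egflam*) and 1 to 11 with 1 mouse left out, the fewest without TG5 and the most without TG1. Partner genes called higher were 2 with DESeq2, 2 with voom and quality weights and 0 to 1 with 1 mouse left out. The direction of *Lama1* and *Lamb2* and of each share did not change in any setting run, but the difference of the *Lamb2* share, 3.02 percentage points, lay between 0.0879 (without TG1) and 5.65 (without TG5) with 1 mouse left out, and the cause of the changes was not tested. Counts were lowest in *Lama1* (from 5 per mouse) and, in WT3, in *Lamb3* (28).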
